A study of Mus musculus with 15 samples.

Results

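Platelet genes for granule contents, the cytoskeleton and metabolism are described here in RNA from mouse aortic valve leaflets: Ppbp, Pf4, Tubb1, Alox12, Nrgn, Slc6a4 and F5. They were chosen by name, and all 7 names were found among the 18073 genes of the table. The choice was made with the levels and the authors' calls in these same valves known, so that every value below is a description of the chosen genes and none is a test. There were 15 libraries, 1 per mouse, from C57BL/6 mice aged 2 months. The protocol of all 15 included collagenase for 20 minutes at 37 °C. Mice with both changes were Notch1 heterozygous (N1het) generation 2 Terc nulls (TercG2), with shortened telomeres (4 libraries). Mice with short telomeres alone were Notch1 wild type (N1WT) TercG2 (3 libraries). Mice with the Notch1 change alone were N1het with wild type Terc (TercWT) and long telomeres (4 libraries), and mice with neither change were N1WT TercWT (4 libraries). What the mutant Notch1 allele lacks is not given in the sources used here. For each gene and group the authors deposited 1 FPKM (sequenced fragments scaled to transcript length and library depth), so the spread between mice and the read depth are unknown and no value carries an error. They also marked with 0 or 1 the genes they called different between 5 pairs of groups. A gene is said here to have risen or fallen only where the authors' deposited table called it.

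Platelets are fragments of megakaryocytes and have no nucleus, so their RNA is inherited from the megakaryocyte. On activation they change shape, release the contents of their granules and offer a membrane surface on which clotting enzymes assemble. Hearts were rinsed with PBS before dissection, and how much blood stayed in the leaflets is not given in the sources used here. In bulk RNA, fewer platelets and less RNA per platelet cannot be told apart.

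Terc (ENSMUSG00000064796), the RNA template of telomerase, was listed at 0 in both TercG2 groups, against 4.52 FPKM in N1het TercWT and 1.42 FPKM in N1WT TercWT valves. Notch1 (ENSMUSG00000026923), a receptor needed for valve development, stood at 23.3 FPKM in N1het TercG2 against 16.6 FPKM in N1WT TercG2 valves, and at 25.1 FPKM in N1het TercWT against 39.1 FPKM in N1WT TercWT valves. Neither was called. With short telomeres the Notch1 level thus went against the labels, though the deposited value may include transcripts of the mutant allele. Below, N1het TercG2 means the valves labelled so, and every direction drawn from that group rests on its label. In all groups 9 of 9 listed markers of valve interstitial cells were found, summing to between 4301 and 7052 FPKM. The 12 of 12 endothelial markers summed to between 409 and 710.2 FPKM. Dcn (2255 to 4698 FPKM) and Vim (1229 to 1339 FPKM) made up much of the interstitial sum, so it does not by itself show valve identity. Tcf21 of that list fell in N1WT TercG2 against N1WT TercWT valves (26.2 FPKM). It rose in N1het TercG2 (20.1 FPKM) against N1WT TercG2 valves, both in the authors' deposited table. The platelet label was set beside 13 other platelet markers, with none listed at 0. These markers were chosen with earlier results of these data known, so they are no independent check of the label. They summed to 64.4 FPKM in N1het TercG2, 699 FPKM in N1WT TercG2, 24.6 FPKM in N1het TercWT and 972 FPKM in N1WT TercWT valves. Much of this was Gp9, at 346 FPKM in N1WT TercG2 and 531 FPKM in N1WT TercWT valves. In N1het against N1WT valves, 13 of 13 were lower with short telomeres (42.6% of all genes) and 12 of 13 with long (43.6%). F2rl3 was higher with long telomeres, at 0.872 against 0.178 FPKM.

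Ppbp and Pf4 lie next to each other on chromosome 5, on the same strand, in the cluster of CXC chemokine genes. RefSeq promoter sequences (build GRCm38.p6, 250 bases before to 50 bases after the gene's start) were found for all 7 genes. The submitters' processing notes name another build, mm9, and these coordinates belong to GRCm38.p6 alone. Sequences are printed for the chemokine pair, which had the largest and the smallest fall of the 7 genes with long telomeres on the log2(FPKM + 1) scale (by ratio Tubb1 fell most), and for Tubb1 as the member of the cytoskeleton. Capitals mark matches on either strand to GATAA (bound by GATA factors), GGAAG (bound by ETS factors) and TGANTCA (bound by NF-E2 and AP-1), motifs of factors that megakaryocytes use. The windows are chr5:90768268-90768567 (plus strand) for Ppbp, chr5:90772185-90772484 (plus strand) for Pf4 and chr2:174450345-174450644 (plus strand) for Tubb1.
Ppbp: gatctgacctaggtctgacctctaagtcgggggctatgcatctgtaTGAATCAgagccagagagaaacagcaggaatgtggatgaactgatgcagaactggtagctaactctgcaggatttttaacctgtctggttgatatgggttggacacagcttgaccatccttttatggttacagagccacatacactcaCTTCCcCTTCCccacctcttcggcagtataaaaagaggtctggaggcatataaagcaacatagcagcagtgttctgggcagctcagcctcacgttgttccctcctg
Pf4: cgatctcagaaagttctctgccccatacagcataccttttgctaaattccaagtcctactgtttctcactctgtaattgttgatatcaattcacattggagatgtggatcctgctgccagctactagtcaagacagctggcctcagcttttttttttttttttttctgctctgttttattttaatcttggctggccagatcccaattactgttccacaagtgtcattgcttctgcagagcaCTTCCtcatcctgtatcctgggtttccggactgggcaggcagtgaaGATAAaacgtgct
Tubb1: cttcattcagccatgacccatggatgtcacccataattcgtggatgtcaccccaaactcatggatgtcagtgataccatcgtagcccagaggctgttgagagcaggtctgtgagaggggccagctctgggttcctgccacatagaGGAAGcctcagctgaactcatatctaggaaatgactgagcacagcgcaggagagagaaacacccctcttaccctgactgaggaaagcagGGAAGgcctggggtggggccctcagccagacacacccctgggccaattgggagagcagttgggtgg

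The letters GGAAG (or CTTCC) were found in 6 of the 7 promoters, all but that of Slc6a4, and in 71.4% of 32851 mouse promoters of the same length. In Pf4 the match began at position -9 and in Ppbp there were matches at -56 and -50, counting the base before the start as -1. GATAA was found in 1 of 7 (Pf4, at position 38 after the start) and in 25.4% of all promoters, and TGANTCA in 1 of 7 (Ppbp, at -204) and in 7.81% of all. A TATA box sequence (TATAAA) was found in 1 of 7, at -30 and -8 in Ppbp, and in 13.6% of all promoters. No match overlapped another. Matches of this length are common, and these counts describe letters, not binding.

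The granule chemokines were the most abundant members. Ppbp (ENSMUSG00000029372), whose product is cut into beta-thromboglobulin and a chemokine that attracts neutrophils, stood at 85.9 FPKM in N1het TercG2, 849.9 FPKM in N1WT TercG2, 12.9 FPKM in N1het TercWT and 1636 FPKM in N1WT TercWT valves. In N1WT TercWT valves it ranked 23 among the 18073 genes by FPKM, and in N1het TercWT valves it ranked 6083. Pf4 (ENSMUSG00000029373), platelet factor 4, a chemokine that binds heparin, stood at 286.9 FPKM in N1het TercG2, 637 FPKM in N1WT TercG2, 104 FPKM in N1het TercWT and 773 FPKM in N1WT TercWT valves. Both were lower in each heterozygous group than in either wild type group. Pf4 was below Ppbp in the wild type groups and above it in the heterozygous ones.

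F5 (ENSMUSG00000026579) encodes coagulation factor V, the cofactor with which factor Xa makes thrombin, and part of it is stored in platelet granules. It stood at 5.34 FPKM in N1het TercG2, 49.6 FPKM in N1WT TercG2, 0.928 FPKM in N1het TercWT and 53.7 FPKM in N1WT TercWT valves. Tubb1 (ENSMUSG00000016255), the beta tubulin of the microtubule ring that holds the platelet's disc shape, stood at 2.69, 50.1, 0.215 and 41 FPKM in the same order of groups. The wild type groups were thus close to each other for both genes, and the heterozygous groups were far below them.

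Alox12 (ENSMUSG00000000320) is the platelet lipoxygenase that oxidises arachidonic acid. It stood at 12.2 FPKM in N1het TercG2, 66.5 FPKM in N1WT TercG2, 2.08 FPKM in N1het TercWT and 105 FPKM in N1WT TercWT valves. Nrgn (ENSMUSG00000053310), neurogranin, a calmodulin-binding protein best known from neurons, stood at 18.1, 135, 8.60 and 324 FPKM in that order. Slc6a4 (ENSMUSG00000020838), the transporter through which platelets take up serotonin, was the lowest member in every group, at 0.526, 17.0, 0.0591 and 10.8 FPKM. All 7 genes had their lowest value in N1het TercWT and their second lowest in N1het TercG2 valves. The highest value was in N1WT TercWT valves for 5 genes and in N1WT TercG2 valves for Tubb1 and Slc6a4. The deposited values cannot show whether neighbours in this order differ beyond the spread between mice.

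**Figure D1:**
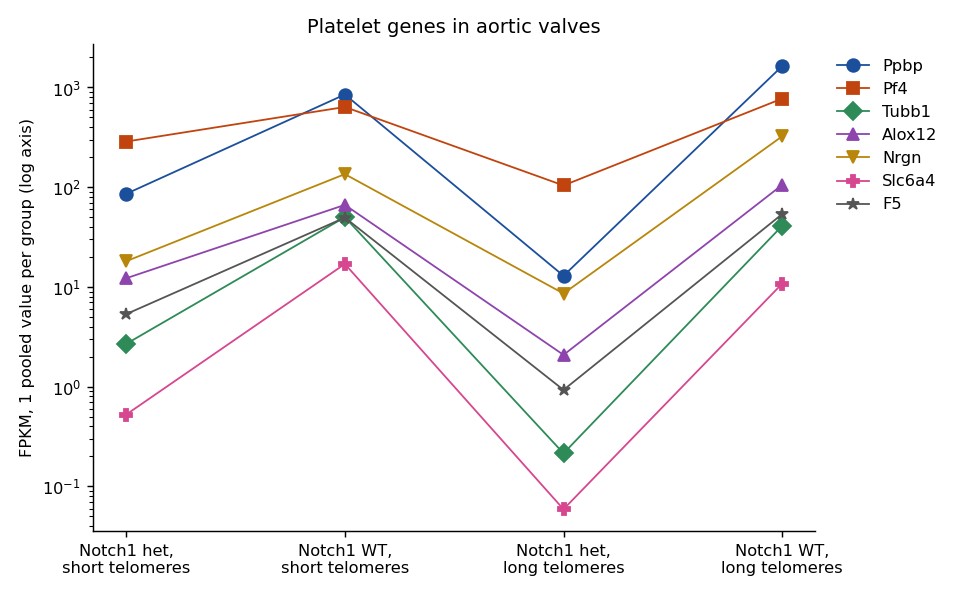
FPKM of the 7 platelet genes on a log axis, with 1 pooled value per group (no error can be given) and the groups along the x axis. All 7 lines dip in both heterozygous groups and reach their lowest point in Notch1 heterozygous valves with long telomeres, from 0.0591 FPKM for Slc6a4 to 104 FPKM for Pf4.

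With long telomeres, valves labelled N1het were compared with valves labelled N1WT. All 7 genes fell in the authors' deposited table, where 0.271% of the 18073 genes were called lower, 0.144% higher and 0.415% in either direction. Because these calls were known when the genes were chosen, nothing is read from that count. The calls of this comparison stand under the header of the comparison with short telomeres. They were assigned to this pair of groups from the FPKM ratios, as given under processing. Differences are given below on the log2(FPKM + 1) scale, heterozygous minus wild type, a scale that makes changes of weakly expressed genes look smaller. The median of the 7 genes was -5.08, against a median of 0.092 over all genes. Ppbp fell by 6.88 on this scale, which is a 126-fold lower FPKM, and 1 gene of the table had a larger fall. Pf4 fell by 2.88, a 7.42-fold lower FPKM, the smallest of the 7. Tubb1 and Slc6a4 had the largest ratios of FPKM, 191-fold and 183-fold lower, and F5 was 57.9-fold lower, but these 3 ratios rest on values under 1 FPKM in the heterozygous group. At a pseudocount of 0.1 the fall of Tubb1 (-7.03) passed that of Ppbp (-6.97). Alox12 and Nrgn were 50.6-fold and 37.7-fold lower.

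With short telomeres, the same Notch1 comparison gave smaller ratios. The authors' deposited table called 5 of the 7 genes lower, namely Ppbp, Tubb1, Nrgn, Slc6a4 and F5. Of all genes it called 0.36% lower, 0.116% higher and 0.476% in either direction. The median difference of the 7 was -2.99, against 0.056 over all genes. Slc6a4 was 32.3-fold lower, Tubb1 18.6-fold, Ppbp 9.90-fold, F5 9.28-fold and Nrgn 7.46-fold. Alox12, at 12.2 against 66.5 FPKM (5.44-fold), and Pf4, at 286.9 against 637 FPKM (2.22-fold), were lower without a call. The smallest ratio among all genes called in this comparison was 4.30-fold, so that Alox12 was past it and Pf4 was not.

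The ratio of wild type to heterozygous FPKM was smaller with short than with long telomeres for all 7 genes. On the log2(FPKM + 1) scale the difference between the 2 Notch1 contrasts, short minus long telomeres, was 1.83 in the median of the 7 and 0.0042 in the median of all genes. It was 3.58 for Ppbp, 2.76 for Alox12, 2.25 for Nrgn and -0.083 for Slc6a4. The sign for Slc6a4 rests on the pseudocount, since its ratio went the other way. This difference was not tested, because the table holds 1 pooled value per group.

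In N1WT valves, short against long telomeres gave no call among the 7 genes. Of all genes, 0.249% were called lower, 0.437% higher and 0.686% in either direction in the authors' deposited table. The median difference was -0.28, against -0.23 over all genes, with 5 members lower and 2 higher. Nrgn was at 135 against 324 FPKM (-1.25), Ppbp at 849.9 against 1636 FPKM (-0.94) and Alox12 at 66.5 against 105 FPKM (-0.66). Pf4 (-0.28), F5 (-0.11) and Tubb1 (0.28) changed sign with the scaling, as Pf4 and F5 were higher (0.10 and 0.26) with group medians made equal, and Tubb1 was lower (-0.087) with mitochondrially encoded genes left out of the total. Slc6a4 was at 17.0 against 10.8 FPKM (0.61).

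In N1het valves, short telomeres went with higher values of all 7 genes. The median difference was 1.60, against -0.24 over all genes. Only Ppbp rose in the authors' deposited table, to 85.9 FPKM in N1het TercG2 against 12.9 FPKM in N1het TercWT valves (2.64), where 0.0775% of all genes were called higher, 0.354% lower and 0.432% in either direction. Alox12 was at 12.2 against 2.08 FPKM (2.10), F5 at 5.34 against 0.928 FPKM (1.72) and Pf4 at 286.9 against 104 FPKM (1.45), without a call. Tubb1 had the largest ratio, 12.5-fold, at 2.69 against 0.215 FPKM. As deposited, 5 of the 7 genes were higher with short telomeres in N1het and lower in N1WT valves, all but Tubb1 and Slc6a4. This was not tested, and the count depends on the scaling, since the N1WT directions of Pf4, F5 and Tubb1 changed with it. In N1het TercG2 valves each of the 7 genes was still under its level in both wild type groups.

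The group with both changes was also set against the group with neither. Of the 7 genes, 6 fell in the authors' deposited table, all but Pf4. Of all genes it called 0.31% lower, 0.216% higher and 0.526% in either direction. Their median difference was -3.11, against -0.16 over all genes. Slc6a4 was 20.5-fold lower, Ppbp 19.1-fold, Nrgn 17.9-fold, Tubb1 15.2-fold, F5 10.1-fold and Alox12 8.62-fold. Pf4 was 2.69-fold lower, at 286.9 FPKM in N1het TercG2 and 773 FPKM in N1WT TercWT valves. The comparisons share groups and are not independent of each other.

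**Figure D2:**
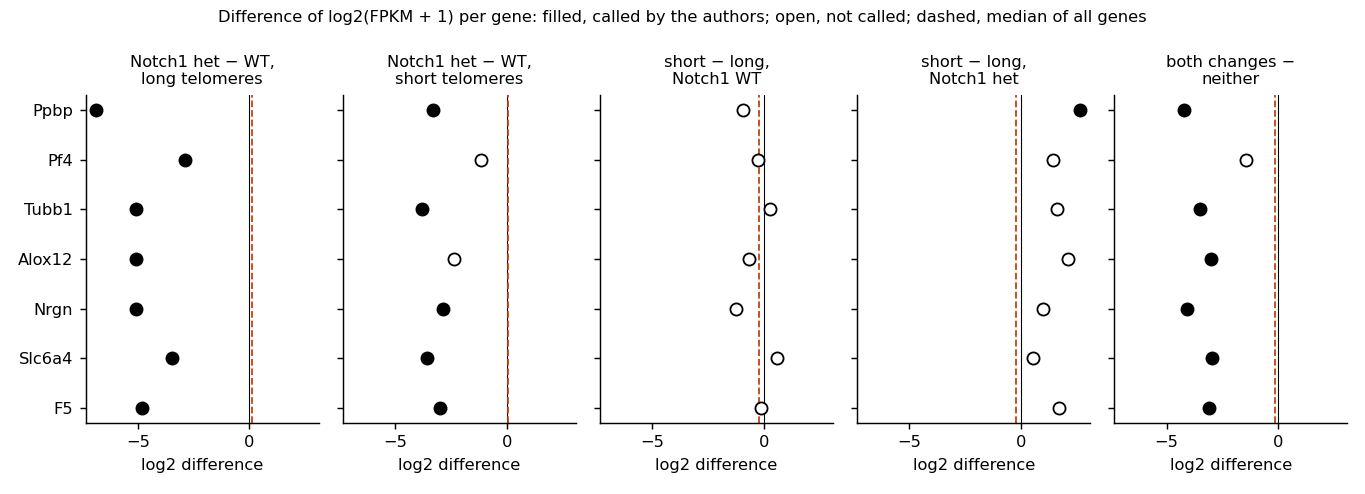
Difference of log2(FPKM + 1) for each of the 7 genes (rows) in the 5 comparisons (panels), with filled points for genes the authors called, open points for the others and a dashed line at the median of all genes. All 7 points are filled and lie between -6.88 and -2.88 for Notch1 heterozygous against wild type valves with long telomeres, while in wild type valves the points for short against long telomeres are all open and lie between -1.25 and 0.61.

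The make-up of the group differed as well as its total. The 7 genes summed to 412 FPKM in N1het TercG2, 1806 FPKM in N1WT TercG2, 129 FPKM in N1het TercWT and 2944 FPKM in N1WT TercWT valves, which was 0.0697%, 0.31%, 0.0309% and 0.688% of the summed FPKM of all genes. Pf4 made up 69.7% of the 7-gene sum in N1het TercG2 against 35.3% in N1WT TercG2 valves, and 80.8% in N1het TercWT against 26.3% in N1WT TercWT valves. Ppbp made up 20.9% in N1het TercG2 against 47.1% in N1WT TercG2 valves, and 10.04% in N1het TercWT against 55.6% in N1WT TercWT valves. Per unit of Ppbp there was thus more Pf4 where platelet genes were low: the ratio of Pf4 to Ppbp was 3.34 in N1het TercG2, 0.750 in N1WT TercG2, 8.05 in N1het TercWT and 0.473 in N1WT TercWT valves. Alox12 per 100 units of Ppbp was at 14.2, 7.82, 16.1 and 6.44 FPKM in the same order, Nrgn at 21.1, 15.9, 66.4 and 19.8 FPKM, and F5 at 6.22, 5.83, 7.17 and 3.28 FPKM. Tubb1 and Slc6a4 went the other way, at 3.13 and 0.613 FPKM per 100 units of Ppbp in N1het TercG2 against 5.89 and 2.00 FPKM in N1WT TercG2 valves, and at 1.66 and 0.456 FPKM in N1het TercWT against 2.50 and 0.66 FPKM in N1WT TercWT valves.

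**Figure D3:**
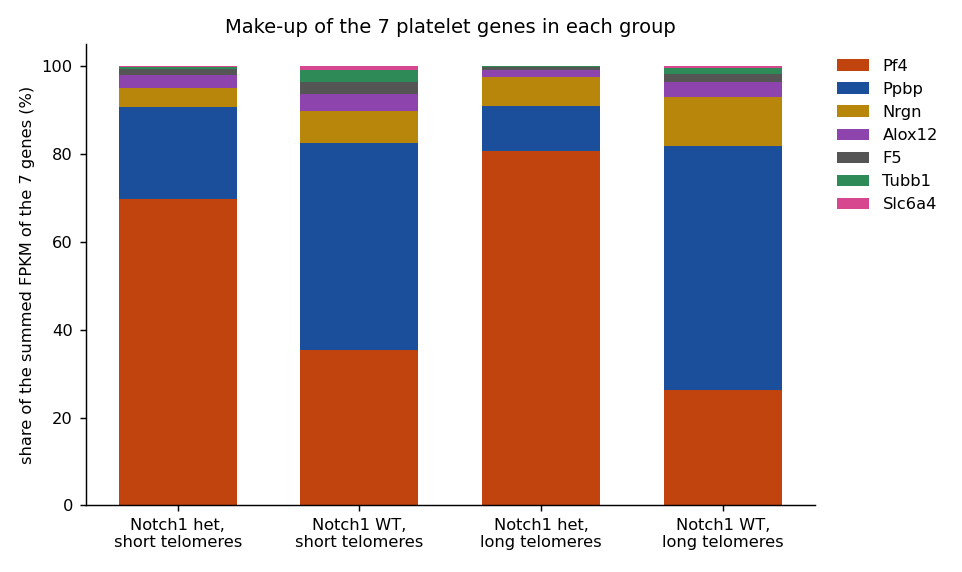
Share of each gene (colours) in the summed FPKM of the 7 platelet genes, in percent, for the 4 groups (bars, 1 pooled value each). Pf4 takes 69.7% and 80.8% in the heterozygous groups with short and long telomeres, against 35.3% and 26.3% in the wild type groups.

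Pf4 transcripts are also known from some tissue macrophages of mice. The 11 measured macrophage markers summed to 2972 FPKM in N1het TercG2 against 1508 FPKM in N1WT TercG2 valves, and to 1634 FPKM in N1het TercWT against 1150.3 FPKM in N1WT TercWT valves. None of them was at 0 or called. C1qa, a complement component made by macrophages, stood at 145 FPKM in N1het TercG2, 33.0 FPKM in N1WT TercG2, 70.7 FPKM in N1het TercWT and 62.3 FPKM in N1WT TercWT valves. The macrophage sum was higher in each heterozygous group than in its wild type counterpart, but much of it was Lyz2, at 1839 against 999 FPKM with short and 921 against 554 FPKM with long telomeres. The list median was 1.02 with short telomeres (9 of 11 higher) and 0.18 with long (7 of 11 higher). The sum was highest in N1het TercG2 valves, while the share of Pf4 was highest in N1het TercWT valves. The part of these cells in the Pf4 level was not tested.

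Neutrophil and thymocyte markers had other orders of groups than the 7 genes. The erythroid sum had the order of Tubb1 and Slc6a4, and the smooth muscle sum had that of Ppbp, Pf4, Alox12, Nrgn and F5. The 14 neutrophil markers summed to 189 FPKM in N1het TercG2, 1822 FPKM in N1WT TercG2, 49.6 FPKM in N1het TercWT and 17.5 FPKM in N1WT TercWT valves, where Ngp, Ly6g, Elane and Camp were listed at 0. In the Notch1 comparisons of the authors' deposited table, 3 of them were called lower with short telomeres (0.36% of all genes) and 0 with long (0.271% of all genes). The 15 thymocyte markers summed to 25.8 FPKM in N1het TercG2, 307 FPKM in N1WT TercG2, 1789 FPKM in N1het TercWT and 209 FPKM in N1WT TercWT valves. Of these, 7 were called lower in N1het with short telomeres (0.36% of all genes) and 8 higher with long (0.144% of all genes). The 7 platelet genes were lower in both. The sum of the 11 erythroid markers, which the globins dominate, was 15772 FPKM in N1het TercG2 against 28582 FPKM in N1WT TercG2 valves, and 7457 FPKM in N1het TercWT against 17035 FPKM in N1WT TercWT valves. Smooth muscle markers, 8 in number, summed to 493 and 625 FPKM in N1het and N1WT TercG2 valves, and to 280 and 1252 FPKM in N1het and N1WT TercWT valves. The erythroid and smooth muscle sums thus stood lower beside the 7 genes in each heterozygous group. With short telomeres the list medians were -3.19 for thymocyte, -2.28 for neutrophil, -1.49 for erythroid and -0.64 for smooth muscle markers. With long telomeres they were 3.11, 0.68, -1.14 and -2.80 in that order. The thymocyte median with short telomeres was thus below that of the 7 genes (-2.99). Of the erythroid markers 10 of 11 were lower with short telomeres and 9 of 11 with long, and Ermap was higher in both (0.751 against 0.212 FPKM and 1.03 against 0.547 FPKM). Of the smooth muscle markers 7 of 8 were lower with short telomeres, all but Des (96.1 against 51.8 FPKM), and 8 of 8 with long. With short telomeres 2 erythroid and 0 smooth muscle markers were called lower (0.36% of all genes), and with long telomeres 0 erythroid and 4 smooth muscle markers (0.271% of all genes). Mast cell and basophil markers (6 measured) summed to between 8.42 and 33.3 FPKM, and heart muscle markers (10), carried by Tnnt2 and Actc1, to between 3278 and 5407 FPKM. The atrial genes among the heart markers were lower beside the 7 genes with long telomeres and not with short. Myl7, an atrial myosin light chain, was at 129 FPKM in N1het TercG2 against 47.1 FPKM in N1WT TercG2 valves, and fell to 13.01 FPKM in N1het TercWT against 216 FPKM in N1WT TercWT valves in the authors' deposited table. Bmp10, an atrial growth factor, was listed at 0 in both TercG2 groups, and fell to 0.162 FPKM in N1het TercWT against 35.9 FPKM in N1WT TercWT valves in that table. Nppa, the atrial natriuretic peptide gene, was at 413 against 46.8 FPKM with short and 43.4 against 352 FPKM with long telomeres, and Sln, sarcolipin, at 21.6 against 0.439 FPKM and 0.563 against 31.4 FPKM. The median of the heart list was 1.02 with short and -1.15 with long telomeres. The part of any of these cells in the result was not tested.

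Of 20 surface receptor genes of platelets, 9 were called lower in N1het against N1WT valves with short telomeres in the authors' deposited table (0.36% of all genes), and 14 with long telomeres (0.271% of all genes). The 13 markers set beside the platelet label above are all in this list, so the list is no second line of evidence. Gp9, a subunit of the receptor for von Willebrand factor, stood at 20.8 FPKM in N1het TercG2, 346 FPKM in N1WT TercG2, 2.21 FPKM in N1het TercWT and 531 FPKM in N1WT TercWT valves. The list median was -2.82 with short and -3.04 with long telomeres, with 18 of 20 lower in each. With long telomeres Tbxa2r (12.5 against 0.978 FPKM) and F2rl3 (0.872 against 0.178 FPKM) were higher in N1het TercWT than in N1WT TercWT valves. Fcer1g, a signalling chain shared with myeloid cells, was uncalled at 304, 250.5, 177 and 245 FPKM in that order of groups.

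Of 16 genes for other granule contents and for granule formation, 0 were called with short telomeres and 1 with long. Of all genes, 0.476% were called in either direction with short and 0.415% with long telomeres. A count of 0 in a list of this size thus says nothing about it. The called gene was Mmrn1, multimerin, a factor V-binding protein of platelets and endothelium, at 4.78, 24.4, 0.995 and 23.3 FPKM in N1het TercG2, N1WT TercG2, N1het TercWT and N1WT TercWT valves. The adhesive granule protein Thbs1, which fibroblasts and endothelium also make, stood at 174, 321, 132 and 285 FPKM, and the proteoglycan core protein Srgn at 249.5, 336, 133 and 183 FPKM. Cd63, a membrane protein of lysosomes and granules in many cells, was at 294, 269, 193 and 157 FPKM. The list median was -0.31 with short and -0.29 with long telomeres, beside -2.99 and -5.08 for the 7 genes, a difference that was not tested.

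The families of Ppbp, Pf4 and Tubb1 were read against all genes, of which 0.476% were called in either direction with short telomeres and 0.415% with long, so that 0 calls among lists this short say nothing about them. Of 16 other CXC chemokines and their receptors, 0 were called in either Notch1 comparison (medians 0.30 with short and 0.32 with long telomeres). Cxcl2 and Cxcl1, which attract neutrophils, stood at 333 and 164 FPKM in N1het TercG2, 263 and 93.2 FPKM in N1WT TercG2, 139.6 and 35.1 FPKM in N1het TercWT, and 78.9 and 27.4 FPKM in N1WT TercWT valves. Their receptor Cxcr2, found on neutrophils, rose to 19.8 FPKM in N1WT TercG2 valves, against 0.321 FPKM in N1WT TercWT valves, and Cxcr6, a receptor of T cells, fell to 0.118 FPKM in N1WT TercG2 against 15.2 FPKM in N1WT TercWT valves, both in the authors' deposited table. Of 14 other tubulins 0 were called (medians 0.088 and 0.37), and the common beta tubulin Tubb5 was at 112, 104, 188 and 122 FPKM in N1het TercG2, N1WT TercG2, N1het TercWT and N1WT TercWT valves.

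Of 15 genes of the actin and adhesion cytoskeleton, 0 were called with short telomeres and 1 with long (medians -0.24 and -0.62). The shares of all genes called in either direction in these Notch1 comparisons were 0.476% with short and 0.415% with long telomeres. The called gene was Parvb, which links integrins to actin, at 35.9, 122, 16.5 and 104 FPKM in N1het TercG2, N1WT TercG2, N1het TercWT and N1WT TercWT valves. The actin-binding genes Cfl1 and Pfn1 were uncalled, at 312 and 276 FPKM in N1het TercG2 and 397 and 342 FPKM in N1WT TercWT valves. Of all genes, 1.58% were called in at least 1 of the 5 comparisons, so that 0 calls in a list of this size say nothing about it. Of 16 other genes of arachidonic acid metabolism 0 were called in the 5 comparisons (medians -0.046 with short and -0.30 with long telomeres for the Notch1 comparisons). Alox5ap, which hands arachidonic acid to the leukotriene pathway, stood at 106, 136, 87.4 and 121 FPKM in the same order, and the prostacyclin synthase Ptgis at 84.8, 69.6, 94.4 and 150.3 FPKM.

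Of 10 measured genes of serotonin handling 0 were called in the 5 comparisons. Of all genes, 1.58% were called in at least 1 of the 5, so counts of 0 in the short lists of this paragraph say nothing about them. Slc18a2, the transporter that loads serotonin into platelet dense granules and monoamines into other vesicles, stood at 3.73 FPKM in N1het TercG2, 18.7 FPKM in N1WT TercG2, 6.70 FPKM in N1het TercWT and 3.86 FPKM in N1WT TercWT valves, an order unlike that of Slc6a4. Of 20 coagulation genes other than F5, 0 were called in the Notch1 comparisons (medians 0.53 with short and -0.08 with long telomeres). In these comparisons 0.476% of all genes were called in either direction with short and 0.415% with long telomeres. Thbd, thrombomodulin, the endothelial receptor that turns thrombin to an anticoagulant role, rose in the group with both changes, to 215 FPKM in N1het TercG2 against 50.6 FPKM in N1WT TercWT valves, in the authors' deposited table. Of 11 partners and relatives of neurogranin 0 were called in the 5 comparisons (medians 0.044 and -0.023 for the Notch1 comparisons), with the calmodulin gene Calm2 at 495.5, 379, 244 and 314 FPKM in the order of groups used above.

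Of 12 transcription factors of megakaryocytes, 2 were called lower with short telomeres (0.36% of all genes) and 1 with long (0.271% of all genes) in the Notch1 comparisons of the authors' deposited table. Gfi1b, a repressor needed for megakaryocyte and red cell development, was listed at 0 in both heterozygous groups, against 10.2 FPKM in N1WT TercG2 and 4.82 FPKM in N1WT TercWT valves. Nfe2, which drives platelet formation and Tubb1, stood at 0.27 FPKM in N1het TercG2, 12.1 FPKM in N1WT TercG2, 0.792 FPKM in N1het TercWT and 8.36 FPKM in N1WT TercWT valves, and was called with short telomeres. Factors also used by endothelium were uncalled, among them Fli1 at 33.3, 31.6, 37.9 and 22.4 FPKM and Gata2 at 29.8, 29.9, 16.6 and 36.0 FPKM in the same order. The list median was 0.0085 with short and -0.84 with long telomeres.

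**Figure D4:**
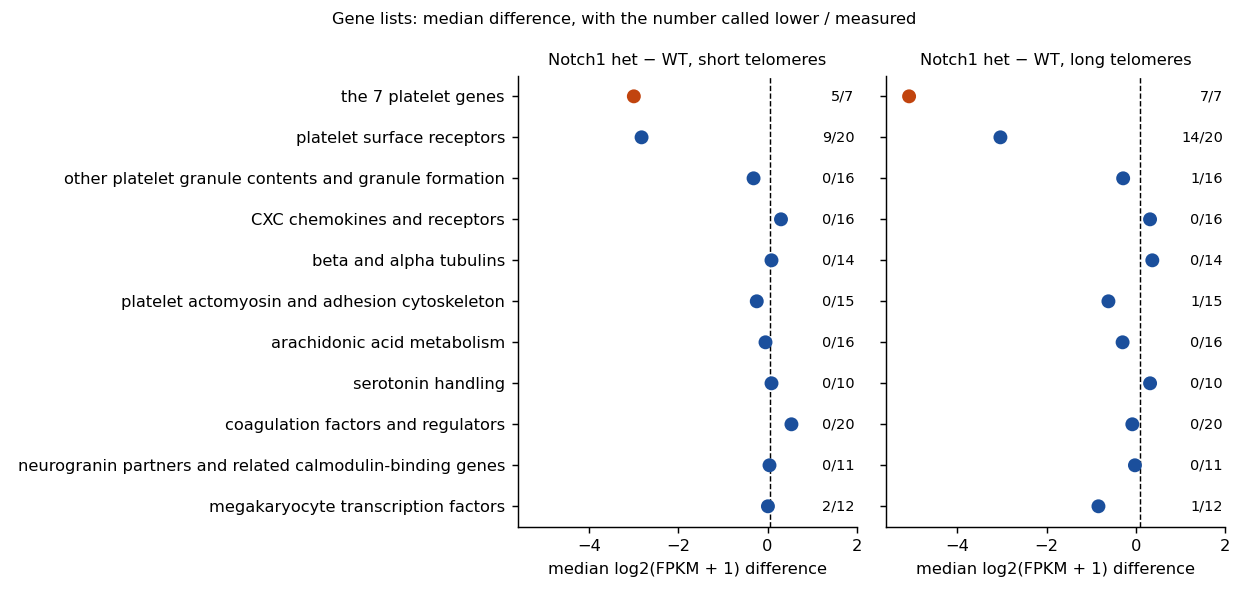
Median difference of log2(FPKM + 1), Notch1 heterozygous minus wild type, for the 7 platelet genes and 10 gene lists (rows) with short (left) and long telomeres (right), with the number called lower over the number measured at the right edge and a dashed line at the median of all genes. The 7 genes (-2.99 and -5.08) and the platelet surface receptors (-2.82 and -3.04) stand to the left of the other lists drawn. The medians of those lists lie between -0.84 and 0.53. Lists of cell type markers are not drawn. Among them, thymocyte markers had a median of -3.19 with short telomeres and smooth muscle markers of -2.80 with long.

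The genes nearest in pattern to the mean of the 7 were found by the root mean square difference of log2(FPKM + 1) over the 4 groups, after each gene's own mean was subtracted, among named genes with a mean of at least 10 FPKM. The nearest was Rgs18, a regulator of G protein signalling in platelets, at a distance of 0.40. It stood at 2.90 FPKM in N1het TercG2, 19.0 FPKM in N1WT TercG2, 0.957 FPKM in N1het TercWT and 29.0 FPKM in N1WT TercWT valves. Of the 10 nearest, 9 are described here, and the others were Treml1 (0.43), Gp6 (0.46), Mmrn1 (0.49), Itga2b (0.50), Gchfr (0.51), Sh3bgrl2 (0.59), Gp1ba (0.63) and Gp1bb (0.69). Gchfr, the feedback regulator of GTP cyclohydrolase, was at 1.73, 44.3, 1.03 and 32.2 FPKM in the same order of groups. Among the 7 themselves the distance from their own mean was 0.11 for F5, 0.22 for Alox12, 0.39 for Tubb1 and Nrgn, 0.52 for Slc6a4, 0.77 for Ppbp and 0.90 for Pf4. Ppbp and Pf4 were thus farther from the group's mean pattern than all 9 of these genes, although the mean includes them. The 9 were selected for their nearness to that mean, so nothing is read from this.

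**Figure D5:**
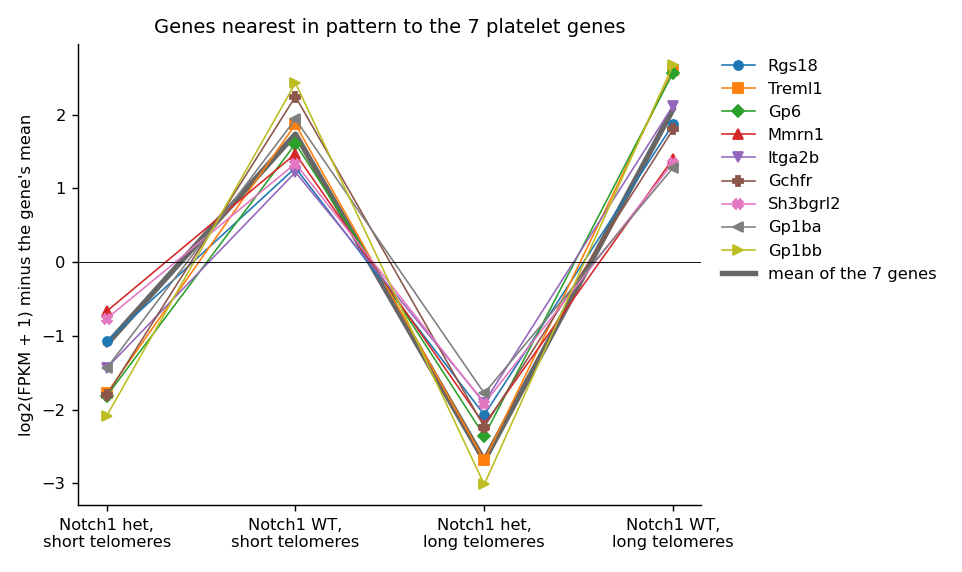
log2(FPKM + 1) minus each gene's mean over the 4 groups, for 9 of the 10 genes nearest in pattern (coloured lines, 1 pooled value per group) and for the mean of the 7 platelet genes (thick line). All 9 coloured lines lie above 0 in both wild type groups and below 0 in both heterozygous groups, with distances from the thick line between 0.40 for Rgs18 and 0.69 for Gp1bb.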

How the data were processed

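RNA from the leaflets, 3 per mouse, was copied to cDNA, amplified by single primer isothermal amplification and sequenced as paired reads of 100 bp, with 4 libraries to a lane, per the labels' protocols. The submitters' processing notes list FastQC, TopHat, SAMtools, Picard and build mm9, and give neither version nor role for any. Which tool made the FPKM values, how libraries were combined within a group, which test gave the calls and which lane held which library is not given in the sources used here. Expression was deposited as FPKM, 1 pooled value per gene and group, by the authors. Depth and spread between mice are therefore unknown, and no interval, floor or test could be computed.

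The 5 columns of calls hold 0 or 1, and columns 8 and 9 carry the same header. That header names N1het TercG2 against N1WT TercG2. Each column was traced to the only pair of groups whose FPKM differed at least 4-fold in all of its called genes. Column 8 was thereby assigned to N1het TercWT against N1WT TercWT, which no header names. The smallest ratio among its called genes was 4.67 in this pair and 1.17 in the next best pair. Differences were computed as log2(FPKM + 1) of the first group minus the second. The members and gene lists were chosen with earlier results of these data known. Lists were matched by symbol or by the Ensembl identifier paired with it in the GENCODE names. The genes that could be named from a pathway list were the 4 with the highest mean log2(FPKM + 1) and every called one. Some of these are named, and the single markers of other cell types, Vwf and the chromosomal neighbours stand outside that rule and were chosen after their values were seen. Alternatives were a pseudocount of 0.1, 2 other scalings, a mean of at least 1 FPKM, and leaving out F5 and Nrgn. Of the 10 genes nearest in pattern, 1 is not reported here. The code was tested on simulated data. It ran in Python 3.11.15 with pandas 2.3.3, numpy 2.4.6 and, for figures, matplotlib 3.10.9.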

Additional observations from a re-analysis of the deposited data

How the results depend on the processing

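The median difference of the 7 genes, Notch1 heterozygous against wild type, was -3.19 with short and -5.71 with long telomeres at a pseudocount of 0.1, -3.03 and -5.03 with group medians made equal, -2.97 and -5.07 with mitochondrially encoded genes left out of the total, and -3.29 and -5.11 without F5 and Nrgn. For both changes against neither, the same settings gave -3.88, -2.77, -3.45 and -3.01. For short against long telomeres in heterozygous valves, the pseudocount of 0.1 gave 2.40, equal medians 1.99 and leaving out mitochondrially encoded genes 1.43. In wild type valves the median turned to 0.10 with equal medians and was -0.66 without mitochondrially encoded genes, so its direction depends on the scaling. Of 105 values for single genes under these settings 102 kept their sign, the exceptions being F5 (0.26) and Pf4 (0.10) with equal medians and Tubb1 (-0.087) without mitochondrially encoded genes, all for short against long telomeres in wild type valves. All 7 genes had a mean of at least 1 FPKM, so that minimum changed no median. Of the 10 nearest genes 9 were also among the 10 nearest at a pseudocount of 0.1, where Gp9 took the place of Treml1. No paired analysis was possible because the table holds 1 pooled value per group, and for the same reason no replicate could be left out. Values under 1 FPKM, such as those of Slc6a4, Tubb1 and F5 in heterozygous valves with long telomeres, make the ratios of these genes uncertain.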

Other observations

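The chromosomal neighbours of the 7 genes were looked up. Of 9 protein-coding genes that lie next to a member in RefSeq and are in the table, leaving aside the adjacent pair of Ppbp and Pf4, 0 were called in the 5 comparisons of the authors' deposited table, where 1.58% of all genes were called in at least 1, so this count says nothing about the neighbours. Vsig2, next to Nrgn, was lower in both heterozygous groups, at 4.35 FPKM in N1het TercG2 against 10.51 FPKM in N1WT TercG2 valves and 5.69 FPKM in N1het TercWT against 16.9 FPKM in N1WT TercWT valves. Selp, the gene next to F5, encodes P-selectin, an adhesion protein of platelet granules that endothelium also stores. It stood at 8.72 FPKM in N1het TercG2, 27.3 FPKM in N1WT TercG2, 12.3 FPKM in N1het TercWT and 11.9 FPKM in N1WT TercWT valves, so the N1het TercWT and N1WT TercWT groups, which differed 57.9-fold for F5, were close for Selp. Cxcl5, the gene next to Ppbp, was at 0.91, 0.526, 0.356 and 3.46 FPKM in the same order. Ctsz and Atp5e, on either side of Tubb1, were at 42.6 and 161 FPKM in N1het TercG2, 60.1 and 115 FPKM in N1WT TercG2, 45.8 and 111 FPKM in N1het TercWT, and 41.5 and 99.0 FPKM in N1WT TercWT valves.

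Von Willebrand factor (Vwf), stored in both platelets and endothelium, stood at 6.21 FPKM in N1het TercG2 against 24.2 FPKM in N1WT TercG2 valves, and at 5.17 FPKM in N1het TercWT against 23.7 FPKM in N1WT TercWT valves, without a call. Pecam1, an adhesion protein of endothelium and platelets, was at 146 against 108 FPKM and at 106 against 96.1 FPKM in the same pairs.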
